A study of Mus musculus with 4 samples.

Results

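The elastic fibre and microfibril genes examined in ZBP1-depleted mBMSCs were Eln, Fbn1, Fbn2, Fbln1, Fbln2, Fbln5, Emilin1, Mfap2, Mfap4 and Mfap5. This list was chosen with earlier results of these data known, and the genes were found by their symbols in the expression table. All 10 were among its 24346 rows. RNA-seq had been performed on 2 samples transfected with a scrambled siRNA (siScr) and 2 transfected with siRNA against ZBP1 (siZBP1), to learn which transcripts change when ZBP1 is lowered. The cells, mBMSCs, were primary adherent stromal cells grown from the bone marrow of wild-type C57BL/6 mice (C57BL/6J in the methods) aged 3 months, kept in DMEM with serum and transfected with Lipofectamine RNAiMAX in both groups. They were purified by washing away nonadherent cells and not by sorting, the number of mice is not given, and which siRNA against ZBP1 was sequenced is not given either. The labels do not say that replicates came from separate cultures, so that p-values measure the spread between these samples, which may be technical.

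An elastic fibre is built from a core of cross-linked elastin on a scaffold of microfibrils. Fibrillins are the backbone of microfibrils, MAGP proteins (Mfap2 and Mfap5) sit on them, fibulins and EMILIN-1 link them to elastin, and lysyl oxidases cross-link the elastin. Microfibrils also hold latent TGF-β in the matrix, and in bone they are present without elastin.

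Expression was given as FPKM, fragments scaled by transcript length and library size, so that levels of different genes can be set side by side. Read numbers were not given, but the spacing of the lowest values gave a rough depth of 10500000 to 19700000 fragments per library, with siZBP1 replicate 1 the shallowest. The targeted gene Zbp1 was at 86.0 and 62.0 FPKM in the siScr replicates and at 11.5 and 11.6 FPKM in the siZBP1 replicates, with a limma log2 fold change of -2.56 (SE 0.16, adjusted p = 0.00322). On leaving out siZBP1 replicate 1 or siZBP1 replicate 2, the limma adjusted p of Zbp1 was 0.0748 and 0.0654. Here limma compared log2(FPKM + 1) between the groups for 11959 genes, those whose FPKM averaged at least 1 over the samples, and a log2 fold change on this scale understates the change of low genes. A gene was called at a Benjamini-Hochberg adjusted p under 0.05 over all these genes. At this sample size the smallest two-sided p that an exact permutation test can reach for any gene is 0.333.

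The labelled cell type was checked against marker lists. All 16 macrophage markers were present, and their summed level was 11173 and 12123 FPKM in the siScr replicates and 16447 and 15736 FPKM in the siZBP1 replicates, far above the 13 mesenchymal stromal markers, whose sums ran from 504 to 678 FPKM. Such sums follow the most abundant genes of a list and do not give shares of cells. Lyz2 alone was at 2814 and 3647 FPKM in the siScr replicates and at 5871 and 5402 FPKM in the siZBP1 replicates. Of all tested genes, limma called 14.8% lower and 13.5% higher in siZBP1 cells. Of the macrophage markers, 10 were called higher and 0 lower by limma, of 16 tested, and their log2 fold changes had a median of 0.29. Of the mesenchymal stromal markers, 5 were called lower and 2 higher (Nt5e and Itgav) of 12 tested, with a median of -0.39, and all 7 tested smooth muscle markers and all 6 tested osteoblast markers were called lower, of which Bglap reached the minimum for testing only through siScr cells. In the 8 endothelial markers the sums stayed between 9.50 and 10.3 FPKM. In bulk RNA, fewer cells of a type and less RNA per cell cannot be told apart. What these shifts contribute to the values of the elastic fibre genes was not tested.

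**Figure D1:**
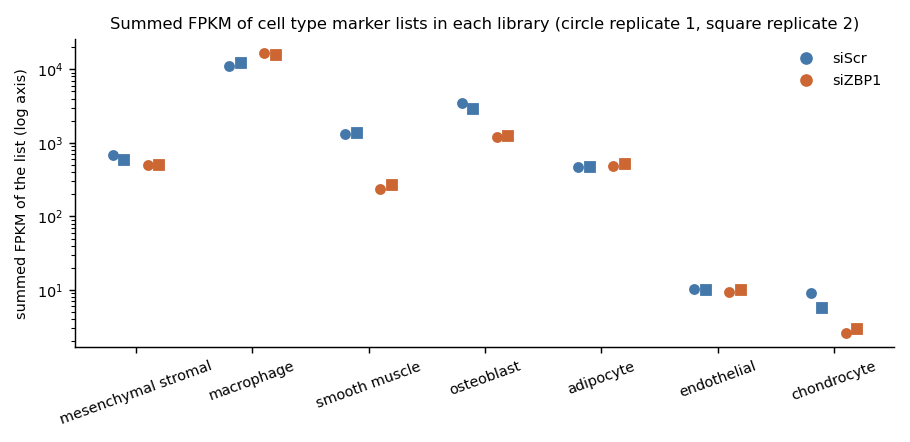
Summed FPKM (log axis) of 7 cell type marker lists in each library, siScr in blue and siZBP1 in orange, with circles for replicate 1 and squares for replicate 2. The macrophage list is the highest in every library, from 11173 to 16447 FPKM, and the smooth muscle list shows the widest gap between the groups, at 1328 and 1343 FPKM in siScr cells and 234 and 271 FPKM in siZBP1 cells.

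Among the 10 genes, Fbln2, Fbn1 and Emilin1 were abundant, Fbln5, Mfap2 and Mfap5 were at intermediate levels, and Eln, Fbn2 and Mfap4 were barely detected in any library. In siScr cells the order of mean levels was Fbln2 (126 FPKM), Fbn1 (51.5), Emilin1 (42.7), Fbln5 (22.5), Mfap2 (5.91), Mfap5 (5.21), Fbln1 (1.84), Fbn2 (0.242), Eln (0.0907) and Mfap4 (0.0193). Mfap2 and Mfap5 were not separated beyond the spread of their replicates in siScr cells, and all other neighbours in this order did not overlap. No order of Eln and Mfap4 is drawn, as both rest on a few fragments. In siZBP1 cells Mfap5 stood above Mfap2 in both replicates, and the rest of the order was kept down to Fbn2.

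**Figure D2:**
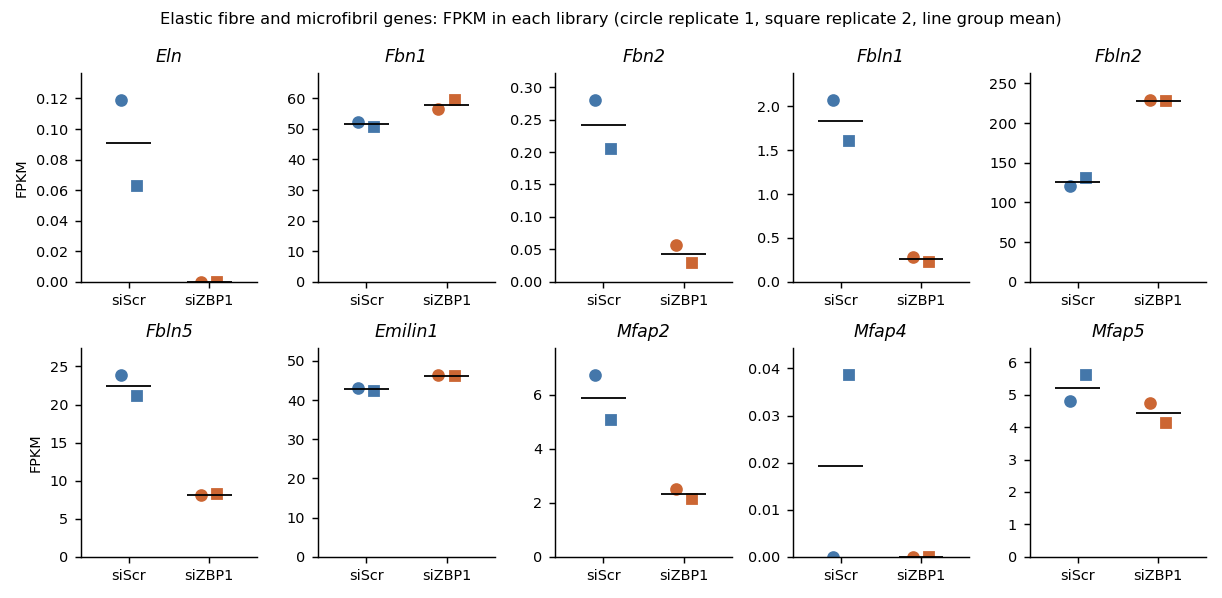
FPKM of each of the 10 genes in each library, with its own vertical axis from 0, circles for replicate 1, squares for replicate 2 and a line at the group mean. Fbln2 moves from 120.5 and 130.7 FPKM up to 228.5 and 227.6 FPKM, Fbln5 and Mfap2 move down, and Eln and Mfap4 are listed at 0 in both siZBP1 libraries.

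Of the 10 genes, 7 reached the minimum average of 1 FPKM and were tested. By limma 3 of these 7 were called lower in siZBP1 cells (Fbln1, Fbln5 and Mfap2), against a background of 14.8% of all tested genes, and 1 was called higher (Fbln2), against 13.5%. The remaining 3, Fbn1, Emilin1 and Mfap5, did not pass. The values of the groups did not overlap for all 7, with 4 lower and 3 higher, where 33.7% of all tested genes were lower without overlap and 34.7% were higher. The median log2 fold change over the 7 was -0.19, beside 0.0045 over all tested genes. Since the genes were chosen with earlier results of these data known, no support is drawn from how they compare with all tested genes. Fbln1 reached the minimum only through its level in siScr cells, and a gene that enters in this way has to differ, so that no support is drawn from its call. With either siZBP1 replicate left out, none of the 7 stayed called, but few of all tested genes were called in these fits either. A call lost in these fits, here or below, is therefore not by itself particular to the gene or list. With any 1 sample left out, log2 fold changes ran from -1.44 to -1.27 for Fbln5, from -1.29 to -1.05 for Fbln1, from -1.22 to -0.87 for Mfap2 and from 0.80 to 0.92 for Fbln2.

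**Figure D3:**
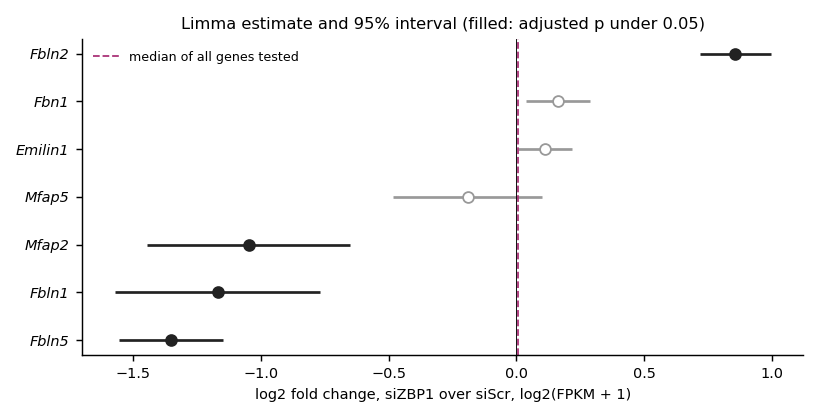
Limma log2 fold change on the log2(FPKM + 1) scale (horizontal axis) with its 95% interval for the 7 tested genes, filled where the adjusted p was under 0.05, with a dashed line at the median of all genes tested. Fbln5, Fbln1 and Mfap2 lie between -1.35 and -1.05, Fbln2 lies at 0.86, and Mfap5, Emilin1 and Fbn1 lie between -0.19 and 0.16.

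The fibulins, calcium-binding glycoproteins of the matrix, changed in opposite directions. Fbln2, the most abundant of the 10 genes, encodes fibulin-2, which binds fibrillin-1 and other matrix proteins. The gene lies on chromosome 6 from 91212455 to 91272540. Its level was 120.5 and 130.7 FPKM in the siScr replicates and at 228.5 and 227.6 FPKM in the siZBP1 replicates. Each siZBP1 sample was above each siScr sample by far more than replicates differed, and the ratio of the means was 1.82. The limma log2 fold change was 0.86 (SE 0.05, adjusted p = 0.00317), and the call was lost without siZBP1 replicate 1 (adjusted p = 0.0748) and without siZBP1 replicate 2 (adjusted p = 0.0661), with log2 fold changes of 0.85 and 0.86.

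Fbln5 encodes fibulin-5, an integrin ligand that brings elastin onto microfibrils and is needed for elastic fibres to form in mice. It lies on chromosome 12 from 101746565 to 101819055. Its level was 23.8 and 21.1 FPKM in the siScr replicates and 8.08 and 8.27 FPKM in the siZBP1 replicates. The groups were well apart, and the siScr mean was 2.75 times the siZBP1 mean. Fbln5 fell by 1.35 on the log2 scale (SE 0.08, limma adjusted p = 0.00277), a call that was lost on leaving out siZBP1 replicate 1 (adjusted p = 0.0748) or siZBP1 replicate 2 (adjusted p = 0.0639).

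Fbln1 encodes fibulin-1, which is found in elastic fibres and basement membranes. It lies on chromosome 15 from 85205949 to 85286535. Fbln1 was at 2.07 and 1.61 FPKM in the siScr replicates and at 0.287 and 0.230 FPKM in the siZBP1 replicates, or roughly 107 and 116 fragments against 11 and 15. Of the 4 called genes it had the largest ratio of means, with siScr 7.12 times siZBP1, while its log2 fold change on the log2(FPKM + 1) scale was -1.17 (SE 0.15, limma adjusted p = 0.0103). Having reached the minimum for testing only through siScr cells, it lends no support. With a pseudocount of 0.1 in place of 1 the log2 fold change was -2.43, since the larger pseudocount compresses so low a level. The call was lost by limma without siZBP1 replicate 1 (adjusted p = 0.0907) and without siZBP1 replicate 2 (adjusted p = 0.0836).

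Set against each other, Fbln2 gained on Fbln5. The ratio of Fbln2 to Fbln5 in FPKM was 5.06 and 6.20 in the siScr replicates and 28.3 and 27.5 in the siZBP1 replicates. Fbln2 made up 47.4% and 50.8% of the summed FPKM of the 10 genes in siScr cells and 65.9% and 65.4% in siZBP1 cells, whereas the share of Fbln5 went from 9.38% and 8.19% to 2.33% and 2.38%. The summed level itself was 253.9 and 257.3 FPKM in siScr cells and 346.9 and 347.9 FPKM in siZBP1 cells. Leaving Fbln2 out, the sums were 133.5 and 126.6 FPKM against 118.4 and 120.3 FPKM, so that the higher total lay in Fbln2.

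**Figure D4:**
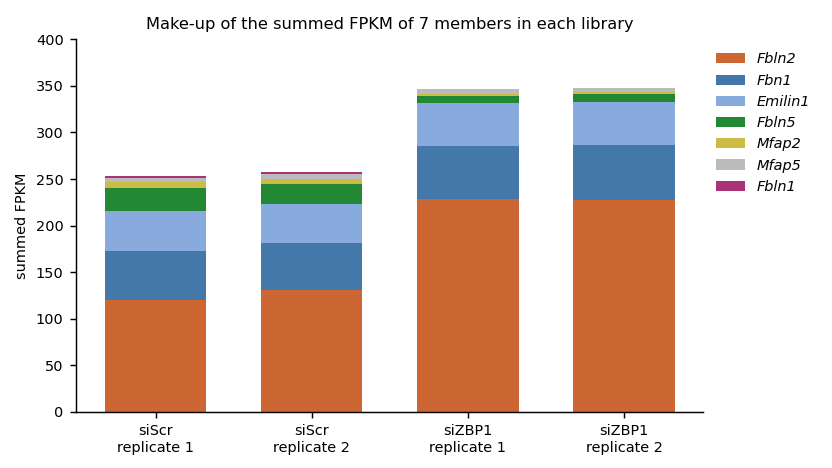
Summed FPKM of the 7 tested genes in each library as stacked bars from 0, divided by gene. The Fbln2 segment grows from 120.5 and 130.7 FPKM to 228.5 and 227.6 FPKM, the Fbn1 and Emilin1 segments keep nearly the same height, and the Fbln5 segment shrinks to 8.08 and 8.27 FPKM.

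The promoters of the 4 called genes are shown because Fbln5 and Mfap2 fell while Fbln2 rose, and because the study examined β-catenin, which acts through TCF/LEF factors, at promoters. Fbln1 is shown beside them, with no support drawn from its call. Each run is 300 bases, from 250 before to 50 after the annotated start, taken from RefSeq on GRCm38.p6 and printed 5′ to 3′ along the gene. Capitals mark matches on either strand to CTTTGA or CTTTGT, the core of the TCF/LEF motif, and to CAGAC, the short SMAD element, and none of these matches overlap each other here. For the elements near Zbp1 the paper gave the longer core CTTTG(A/T)(A/T).

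Fbln1, chr15:85205699-85205998, plus strand: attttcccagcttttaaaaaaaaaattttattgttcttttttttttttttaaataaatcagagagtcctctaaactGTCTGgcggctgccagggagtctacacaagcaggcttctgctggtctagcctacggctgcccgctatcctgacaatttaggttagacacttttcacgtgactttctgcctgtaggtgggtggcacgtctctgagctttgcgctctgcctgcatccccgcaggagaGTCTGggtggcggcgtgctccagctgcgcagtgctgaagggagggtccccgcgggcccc

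Fbln5, chr12:101819070-101819369, minus strand: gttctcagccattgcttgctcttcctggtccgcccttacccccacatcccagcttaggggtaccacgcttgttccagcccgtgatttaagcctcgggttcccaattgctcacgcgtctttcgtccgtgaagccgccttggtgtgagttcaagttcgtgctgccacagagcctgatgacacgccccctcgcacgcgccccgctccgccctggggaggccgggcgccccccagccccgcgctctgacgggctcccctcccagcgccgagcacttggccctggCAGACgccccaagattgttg

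Mfap2, chr4:141010174-141010473, plus strand: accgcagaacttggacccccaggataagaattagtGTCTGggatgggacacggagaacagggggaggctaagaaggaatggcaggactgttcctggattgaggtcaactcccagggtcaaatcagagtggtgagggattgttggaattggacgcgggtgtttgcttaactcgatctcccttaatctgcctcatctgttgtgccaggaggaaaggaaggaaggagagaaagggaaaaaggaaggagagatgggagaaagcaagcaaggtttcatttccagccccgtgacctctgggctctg

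Fbln2, chr6:91212514-91212813, plus strand: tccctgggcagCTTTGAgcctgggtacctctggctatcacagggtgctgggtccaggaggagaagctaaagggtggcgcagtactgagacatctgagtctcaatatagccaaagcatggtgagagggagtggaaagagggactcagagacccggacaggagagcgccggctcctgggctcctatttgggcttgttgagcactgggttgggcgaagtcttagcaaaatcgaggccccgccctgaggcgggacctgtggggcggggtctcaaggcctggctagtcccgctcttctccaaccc

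A TCF/LEF core was found 1 time in the Fbln2 window, with its first base at position 12 of the run, counted from 1 at the 5′ end. It is followed there by G, so that it lacks the last base of the paper's longer core. The short core was not found in the windows of Fbln1, Fbln5 and Mfap2, and 31.2% of 32851 promoters of the same length hold it. Fbln1, Fbln5 and Mfap2 each had 2 promoters listed, of which only that nearest the gene start was searched. CAGAC or its reverse complement was found 2 times in Fbln1, 1 time in Fbln5, 1 time in Mfap2 and 0 times in Fbln2, where 49.6% of all promoters hold it. The GC box GGGCGG, left in lower case, was found 2 times each in Fbln2 and Fbln5, and 35.7% of all promoters hold it. A match is a run of letters and not a shown binding site. Promoters were matched for 2 more of the genes, Fbn1 and Emilin1, of which neither held a TCF/LEF core and Emilin1 held CAGAC 2 times.

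The fibrillins gave no call among the tested genes. Fbn1, on chromosome 2 from 125300594 to 125507993, encodes fibrillin-1, the main backbone protein of microfibrils. It was at 52.4 and 50.7 FPKM in siScr cells and at 56.4 and 59.3 FPKM in siZBP1 cells, which is slightly higher without overlap. Its limma log2 fold change was 0.16 (95% interval 0.04 to 0.29 before adjustment, adjusted p = 0.0641), and after quantile normalization it passed the threshold at 0.18 (limma adjusted p = 0.0494). Exons of Fbn1 share 2442 bases with those of Gm9913 on the opposite strand, and reads of the pair could not be told apart unless strand was used, which is not stated.

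Fbn2 encodes fibrillin-2, the fibrillin of developing tissue. It was at 0.279 and 0.204 FPKM in siScr cells and at 0.0561 and 0.0297 FPKM in siZBP1 cells, roughly 44 fragments in each siScr library and 6.5 and 5.8 fragments in the siZBP1 libraries. The siScr mean was 5.64 times the siZBP1 mean, and the groups did not overlap. Fbn2 lay under the filter. When every gene detected in any library was tested, its limma log2 fold change on the log2(FPKM + 1) scale was -0.25 (adjusted p = 0.0429).

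Of the MAGP genes, Mfap2 was called lower and Mfap5 was not, and the difference between them was not tested. Mfap2 encodes MAGP-1, a small glycoprotein bound to fibrillin that also binds TGF-β and BMP proteins. It lies on chromosome 4 from 141010418 to 141015984. Mfap2 was at 6.73 and 5.08 FPKM in siScr cells and at 2.50 and 2.14 FPKM in siZBP1 cells. As its transcript is short, these levels rest on few fragments, roughly 102 and 107 in siScr cells and 28 and 41 in siZBP1 cells. Its siScr values spread by 1.32-fold, well within the gap between the groups, and the siScr mean was 2.54 times the siZBP1 mean. Mfap2 fell by 1.05 on the log2 scale (SE 0.15, limma adjusted p = 0.0126). The limma adjusted p was just over the threshold without siScr replicate 1, with a log2 fold change of -0.87, and the call was also lost without siZBP1 replicate 1 (adjusted p = 0.106) and without siZBP1 replicate 2 (adjusted p = 0.104).

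Mfap5 encodes MAGP-2, the close relative of MAGP-1. It was at 4.81 and 5.60 FPKM in siScr cells and at 4.73 and 4.13 FPKM in siZBP1 cells, where the nearest values of the groups almost touch. The limma log2 fold change was -0.19 (95% interval -0.48 to 0.10, adjusted p = 0.264). The ratio of Fbn1 to Mfap2 in FPKM was 7.79 and 9.97 in siScr cells and 22.5 and 27.7 in siZBP1 cells, and that of Fbn1 to Mfap5 was 10.9 and 9.05 against 11.9 and 14.4.

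Emilin1 encodes EMILIN-1, which lies where elastin meets microfibrils and restrains the processing of pro-TGF-β. Its values were 43.2 and 42.3 FPKM in siScr cells and 46.3 and 46.2 FPKM in siZBP1 cells. These are separate but close, with a limma log2 fold change of 0.11 (95% interval 0.0047 to 0.22 before adjustment, adjusted p = 0.109).

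Elastin and microfibril-associated protein 4 were at or near 0. Eln, on chromosome 5 from 134702593 to 134747323, was at 0.119 and 0.0628 FPKM in siScr cells, or roughly 6.5 and 4.8 fragments, and was listed at 0 in both siZBP1 libraries. At these depths a value of 0 allows up to 3 fragments, which is 0.0738 FPKM in siZBP1 replicate 1 and 0.0437 FPKM in siZBP1 replicate 2. The limit in siZBP1 replicate 1 is above the value in siScr replicate 2, so that a difference in Eln was not detectable at this depth. Mfap4, whose protein binds elastin and fibrillin, was at 0.0385 FPKM in siScr replicate 2, about the worth of 1 fragment (0.0296 FPKM), and was listed at 0 in the other libraries. These limits cover counting error only and rest on the rough depth. Exons of Eln share 267 bases with those of Gm30003, and exons of Mfap4 share 89 bases with those of Mapk7. Both lie on the opposite strand, and Mapk7 was at 7.96 to 10.2 FPKM. Whether strand was used is not stated, so the few fragments of Eln and Mfap4 may not be their own.

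Other genes of the pathway were taken from lists written with earlier results of these data known. The counts called in each list stand beside 14.8% lower and 13.5% higher of all tested genes. In the list of other fibulins, EMILINs and microfibril genes, 12 of 20 present were tested, of which 7 were called lower, 2 higher (Emilin2 and Mfap3) and 3 not, and the median was -0.85 on the log2 scale. Thsd4, one of the 7, and Efemp1, one of the 3 not called, reached the minimum for testing only through siScr cells, with siScr means of 3.59 and 1.58 FPKM and siZBP1 means of 0.951 and 0.557 FPKM, and no support is drawn from them. Efemp2 encodes fibulin-4, which guides lysyl oxidase to elastin and without which mice form no proper elastic fibres. It fell from 189 and 160 FPKM to 85.3 and 86.2 FPKM, a log2 fold change of -1.01 (SE 0.09, limma adjusted p = 0.00494). Dcn, the small proteoglycan decorin, was at 19.3 and 13.8 FPKM against 4.89 and 3.84 FPKM (log2 fold change -1.70, limma adjusted p = 0.00774). Svep1, a large cell adhesion protein of the matrix, had a log2 fold change of -1.28, and Adamtsl5, which encodes an ADAMTS-like protein that binds fibrillin microfibrils, one of -1.25. Adamtsl4 and Adamts10, whose products act on fibrillin microfibrils, did not pass, with log2 fold changes of 0.19 and 0.15 (limma adjusted p = 0.150 and 0.262). In this list 0 genes were called by limma without siZBP1 replicate 1 or without siZBP1 replicate 2, with 8 and 9 at an unadjusted p under 0.05, and Emilin2 and Mfap3 were also lost without either siScr replicate.

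The lysyl oxidases, which cross-link elastin and collagen, were called lower by limma for 4 of 5 tested genes, and 0 were higher, also at an unadjusted p under 0.05. The most abundant, Lox, was at 696 and 710 FPKM in siScr cells and at 608 and 633 FPKM in siZBP1 cells, a log2 fold change of -0.18 (limma adjusted p = 0.0437) that was -0.05 after quantile normalization (adjusted p = 0.617). The call of Lox was also lost by limma with the replicate number as a block (adjusted p = 0.0841), without a trend (0.0926), with all detected genes tested (0.0886) and with any 1 sample left out (0.0860 to 0.302), and it was kept in 4 of 12 alternatives. Loxl1, the family member known for elastic fibre upkeep in mice, fell from 60.6 and 50.3 FPKM to 21.0 and 21.5 FPKM, a log2 fold change of -1.34 (SE 0.10, limma adjusted p = 0.00377). Loxl3 had a log2 fold change of -0.84 and Loxl4, named after its values were seen, one of -1.07. Loxl2 was at 188 and 171 FPKM against 175 and 178 FPKM, with overlapping groups and a log2 fold change of -0.02 (95% interval -0.17 to 0.13) that turned to 0.0078 after quantile normalization. With either siScr replicate left out 3 of the 5 were called, and with either siZBP1 replicate left out 0 were called by limma, with 3 at an unadjusted p under 0.05 in each case.

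Proteins that hold latent TGF-β are carried by microfibrils or by cells. The list of such genes also includes Ltbp2, by its family name only. Of the 5 genes tested, 3 were called lower (Lrrc32, Ltbp2 and Ltbp1), 1 higher (Nrros), and Ltbp3 did not pass (log2 fold change -0.25, limma adjusted p = 0.0570). Ltbp1 encodes the protein that anchors latent TGF-β to fibrillin, and it was at 23.6 and 19.8 FPKM against 11.1 and 11.6 FPKM (log2 fold change -0.88, limma adjusted p = 0.00774). Ltbp2, an LTBP that binds fibrillin but not latent TGF-β, named after its values were seen, was at 4.69 and 3.62 FPKM against 0.796 and 0.778 FPKM (log2 fold change -1.52). It reached the minimum for testing only through siScr cells, and no support is drawn from it. The cell-surface carrier Lrrc32 had a log2 fold change of -1.96, and Nrros, its relative in macrophages, one of 0.42. Nrros moved in the same direction as the macrophage markers, and what they contribute was not tested. Lrrc32 alone of these genes was called by limma without siZBP1 replicate 1 or without siZBP1 replicate 2, with 5 and 4 genes at an unadjusted p under 0.05, and Nrros was also lost without siScr replicate 1 (adjusted p = 0.0717) and without siScr replicate 2 (adjusted p = 0.0620).

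Of 18 tested TGF-β ligands, receptors and target genes, 9 were called lower and 2 higher (the receptor Tgfbr1 and Skil, a repressor of TGF-β signalling), and the median was -0.28 on the log2 scale. Tgfb3 was at 39.7 and 40.4 FPKM in siScr cells and at 7.09 and 7.78 FPKM in siZBP1 cells, a log2 fold change of -2.28 (SE 0.06, limma adjusted p = 0.00150). Tgfb1 was at 114 and 106 FPKM against 120 and 120 FPKM and did not pass (log2 fold change 0.12, limma adjusted p = 0.126). Among genes that TGF-β is known to induce, Ctgf and Acta2 had log2 fold changes of -1.44 and -2.37. Tgfbi had one of 0.47 with a limma adjusted p of 0.0601. Skil, listed as a target gene too, had one of 0.25 (limma adjusted p = 0.0191). Of the 18 genes 7 did not pass, so that the genes named here do not stand for the list. Tgfbi passed with the replicate number as a block (adjusted p = 0.0255), without siScr replicate 1 (log2 fold change 0.28, limma adjusted p = 0.0459) and without siScr replicate 2 (0.67, adjusted p = 0.0186), so that its call turned on the fit and on single siScr samples. Acta2 is also a smooth muscle marker, and all 7 tested genes of that list, with Acta2 itself among them, were called lower. Without siScr replicate 1 the number of called genes was 7, without siScr replicate 2 it was 12, and with either siZBP1 replicate left out it was 3.

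Proteases that degrade elastin were tested for 7 of 12 genes, with 4 called lower (Mmp14, Mmp12, Ctsk and Mmp2) and 2 higher (Ctsl and Ctsb). Mmp14 was at 256 and 210 FPKM against 155 and 158 FPKM (log2 fold change -0.56), Mmp12, the macrophage elastase, at 55.8 and 63.2 FPKM against 39.2 and 43.3 FPKM (-0.52), and Ctsk, a cathepsin of bone resorption, at 41.5 and 43.1 FPKM against 28.5 and 26.5 FPKM (-0.60). Ctsl, a lysosomal cathepsin, was higher, at 407 and 426 FPKM against 564 and 575 FPKM (0.45). Ctss, an abundant cathepsin of macrophages, did not pass (-0.15, limma adjusted p = 0.0818). The neutrophil gene Elane was at 0 in all libraries. Mmp12 was lower while 10 of 16 macrophage markers were called higher, and what macrophages contribute to its level was not tested. With either siZBP1 replicate left out 0 of the proteases were called by limma, with 5 at an unadjusted p under 0.05 in each case, and Mmp12 was also lost without siScr replicate 2 (adjusted p = 0.0572).

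Receptors of elastin and fibrillin were called higher for 6 and lower for 2 of 11 tested genes, and the median was 0.22 on the log2 scale. Itgb8, one of the 6, reached the minimum for testing only through siZBP1 cells (mean 0.659 FPKM in siScr cells and 1.68 FPKM in siZBP1 cells), and no support is drawn from it. Itgav, the αv integrin subunit that binds RGD sites in fibrillin-1, was at 109 and 113 FPKM against 151 and 151 FPKM (log2 fold change 0.44, limma adjusted p = 0.00524). Its partner Itgb3 was at 5.41 and 8.44 FPKM against 12.9 and 12.9 FPKM (0.84, limma adjusted p = 0.0380), a call that was lost with all detected genes tested (adjusted p = 0.0602) and without a trend (0.0572), while leaving out siScr replicate 1 gave 0.56 and leaving out siScr replicate 2 gave 1.12. Itga5, of the fibronectin receptor, was lower (-0.46), as was the lectin Lgals3 (-0.28), and Itgb1 did not pass (-0.04, limma adjusted p = 0.646). Neu1, a sialidase of the elastin receptor complex, rose from 17.8 and 18.1 FPKM to 26.8 and 26.5 FPKM (0.54), and Glb1, of the same complex, did not pass (0.05, limma adjusted p = 0.633). Integrins and lysosomal enzymes are also expressed by macrophages, of whose markers 10 of 16 were called higher. The 6 receptors called higher went that way, and Itga5 and Lgals3 did not. Itgav is also in the list of mesenchymal stromal markers. What any cell type contributes was not tested. For the receptors 0 calls were left by limma with either siZBP1 replicate left out, with 6 at an unadjusted p under 0.05 in each case.

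**Figure D5:**
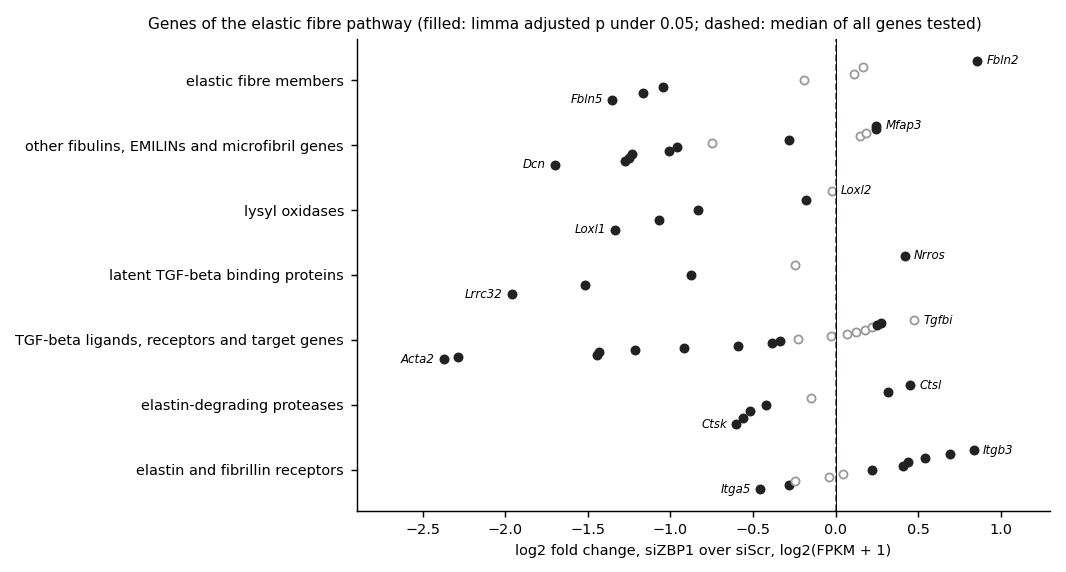
Limma log2 fold change on the log2(FPKM + 1) scale (horizontal axis) of every tested gene in 7 lists (rows), filled where the adjusted p was under 0.05, with the lowest and highest gene of each list named and a dashed line at the median of all genes tested. The lysyl oxidases reach from -1.34 (Loxl1) to -0.02 (Loxl2), and the receptors from -0.46 (Itga5) to 0.84 (Itgb3).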

How the data were processed

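RNA-seq of 4 mBMSC samples (2 siScr, 2 siZBP1) was analysed from the table of FPKM values that the authors deposited per gene and sample, together with their group means. Libraries were made with a TruSeq RNA kit, mapped with TopHat to mm10, and FPKM extracted with HTSeq per the methods, while the submitters' processing notes name TopHat and Cufflinks. The annotation and filters are not given in the sources used here. Values were transformed to log2(FPKM + 1), and genes averaging at least 1 FPKM were fitted in limma 3.58.1 (R 4.3.3) with a variance trend, group as the only term, two-sided, with Benjamini-Hochberg adjustment at 0.05. The script was tested on simulated data.

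Depth was estimated from the lowest values of genes with 1 basic transcript in GENCODE M21, where multiples of 1 fragment stand apart. A gene's fragments were then taken as FPKM times the length of its longest coding transcript, divided by the worth of 1 fragment per kilobase. Positions are from GENCODE M21 on GRCm38, promoters from RefSeq on GRCm38.p6. Figures used Python 3.11.15 and matplotlib 3.10.9.

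The genes, lists and tests were chosen with earlier results of these data known. Named are the 10 genes, Zbp1 and, from each other list, at most 4 called genes averaging at least 5 FPKM with the largest change, and at most 2 of the most abundant that did not pass. A gene that this rule names is not reported here. Named outside the rule, after their values were seen, are Loxl4, Ltbp2, Lgals3, Mmp2, Ctsb, Emilin2, Mfap3, Tgfbr1, Skil, Elane, Thsd4, Efemp1, Itgb8, Nt5e, Bglap, Lyz2, Mmp9, Itgb6 and Itga8. The 13 alternatives concern pseudocount, filter, scaling, trend, replicate block, samples left out and a 1.5-fold ratio of means. Symbols turned into dates in the table could not be used by name.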

Additional observations from a re-analysis of the deposited data

How the results depend on the processing

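With all samples kept, Fbln1, Fbln2, Fbln5 and Mfap2 stayed on their side of the limma threshold under every alternative that tested them, with adjusted p of at most 0.0209, 0.0104, 0.00788 and 0.0240, and none of them changed sign. Fbln1 entered the test only through siScr cells, so that its steadiness is no support. Raising the minimum average FPKM to 5 left 1 gene called lower, Fbln5, with Fbln1, Mfap2 and Mfap5 no longer tested and the median log2 fold change at 0.14. Quantile normalization gave 2 called higher, with Fbn1 added, and turned Loxl2 to 0.0078. Limma without a trend called 5 receptors, and the 1.5-fold ratio of means picked 7 TGF-β genes, 2 proteases and 4 receptors. That ratio has no minimum level. Among those picked, the protease Mmp9 and the receptors Itgb6 and Itga8 lay under the filter, averaging 0.194, 0.0245 and 0.123 FPKM. No support is drawn from them or from Itgb8, which was also picked. When a sample is dropped, the spread of its group, now 1 sample, is taken from the other group, and the cause of the losses was not tested. Over these 4 fits, 0 to 3 members were called lower and 0 to 1 higher, with medians of -0.28 to -0.10. Over all genes, 23 to 1297 were lower and 22 to 1019 higher, against 1766 and 1618 with all samples. Zbp1 ranged from -2.79 to -2.33. The called genes ranged from 0 to 7 for other fibulins and microfibril genes, 0 to 3 for lysyl oxidases, 1 to 3 for latent TGF-β binding proteins, 3 to 12 for TGF-β genes, 0 to 5 for proteases and 0 to 6 for receptors. Signs turned within this range for Loxl2 (-0.088 to 0.044) and Glb1 (-0.031 to 0.12), both without siScr replicate 1, and for Itgb1 (-0.11 to 0.023) without siScr replicate 2, none of them called with all samples.

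The replicate numbers are not said to mark a shared culture or day, and the differences between replicates 1 and 2 correlated at -0.063 between the groups over 11959 genes. With the replicate number as a block, 1654 genes were lower and 1465 higher, the members called stayed at 3 lower and 1 higher, and Zbp1 was at -2.56. The block took Lox (adjusted p = 0.0841) out of the lysyl oxidases called (3 in place of 4), left 1 in place of 2 other fibulin and microfibril genes higher, and added Tgfbi (adjusted p = 0.0255). It changed no other call of a gene named by rule. Genes under about 1 FPKM, such as Eln and Mfap4, are limited by depth.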
